A study of Macaca fascicularis with 6 samples.

Results

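RAB proteins are small GTPases that sit on the membranes of vesicles and organelles and decide where membrane is sent. Each is switched on by an exchange factor and off by a GTPase-activating protein, is anchored in the membrane by a prenyl group, and while switched on recruits effectors that move, tether or fuse the vesicle. In epithelium these proteins sort receptors and integrins between the lysosome and the cell surface, keep apical and basolateral surfaces apart and carry secretory granules, and corneal epithelium replaces a wound by migration of its cells over the bare surface.

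The genes described here are those whose symbol is RAB followed by a digit in the 6 gene count tables of a single-cell study of the healing cornea of the cynomolgus monkey (Macaca fascicularis). The rule found 56 genes among 14623 listed in all. Of these, 48 encode GTPases and 8 encode partner proteins that carry a RAB name: RAB3GAP1, RAB3GAP2, RAB3IL1, RAB5IF and RAB11FIP1 to RAB11FIP4. By main role, 11 GTPases act between the endoplasmic reticulum and the Golgi, 10 in exocytosis, 11 in endocytosis and at the lysosome, 6 in recycling, and 10 at lysosome-related organelles, cilia or other sites. RAB1A, RAB4A, RAB4B, RAB11B, RAB32 and RAB3IP were not analysed here, because the tables do not list them under those symbols.

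Wild-type corneas gave 2 samples in each of 3 groups: uninjured cornea, cornea 1 day after corneal injury and cornea 3 days after it. The labels state that corneal epithelial cells were taken, but not the kind of injury, the age of the monkeys or how many monkeys stand behind a group, and a p-value therefore weighs a difference against the spread of these 2 samples a group, be it biological or technical. Cells were captured on the 10x Genomics Chromium instrument, which marks the RNA of each cell with a barcode, and libraries followed HIT-scISOseq, a method that reads full-length cDNA of single cells on a long-read sequencer.

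The tables held 1068 to 1565 barcodes and 3733442 to 4928103 counts per sample, of which 0.306% to 0.367% were counts of the RAB genes. Every sample expressed the keratins and other markers of corneal epithelium: the summed level of 9 differentiation markers was 24432 to 33430 CPM (counts scaled to the size of the library) and that of 8 basal markers 7360 to 33117 CPM. Among markers of other cells, the T cell gene CD3D had at most 1 count in a sample and 3 markers of vascular cells together at most 26. The 7 markers of keratocytes, the cells of the corneal stroma, summed to 1923 to 3130 CPM, nearly all of it ALDH1A1 and DCN, which were high in uninjured samples too. Of that list LUM had 0 counts in uninjured samples, against 6 and 2 on day 1 and 127 and 121 on day 3, and COL1A1 had 14 and 7, 4 and 3, and 248 and 179. The 10 markers of dividing cells summed to 56.2 and 134 CPM in uninjured samples, against 23.7 and 21.2 on day 1 and 155 and 197 on day 3. The part of these cells in the differences below was not tested.

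For each sample the counts of all its barcodes were added up, and levels are given as CPM scaled with TMM factors, which correct for a few genes that take a large share of the counts. Differences are log2 fold changes from edgeR's quasi-likelihood test, a gene counting as higher or lower where the p adjusted over all genes tested was under 0.05. In such sums, more cells of a kind and more RNA per cell cannot be told apart. RAB19, RAB42 and RAB7B were too low to be tested, which left 53 genes. Levels are not compared between genes, since the tables give no gene lengths.

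At day 1, 19 of the 53 RAB genes were higher than in uninjured cornea and 17 lower, against 62.2% called among all genes tested (30.5% higher and 31.7% lower). At day 3, 19 were higher and 12 lower, against 55.2% of all genes (28.8% and 26.4%). Between the injured groups, 14 were higher and 13 lower at day 3 than at day 1, against 59.3% of all genes (30.5% and 28.8%). These shares of the family are near those of all genes. DESeq2 called 5314 of 12294 genes at day 1, 4213 at day 3 and 5002 between the injured groups. Of these, 53.2%, 60.5% and 53.0% were higher. Among the RAB genes it called 14 higher and 11 lower at day 1, 17 and 5 at day 3, and 8 and 8 between the injured groups. Over all genes the median log2 change was -0.06 (day 1) and -0.03 (day 3), and scaling to total counts alone moved these medians to -0.40 and -0.46. Under that scaling 8190 of 12294 genes were called at day 1 and 8182 at day 3, of which 29.1% and 24.2% were higher. These shares and those of DESeq2 also stand beside the splits by role given below. The RAB genes split under total counts into 10 higher and 24 lower at day 1 and 10 higher and 26 lower at day 3. Of the calls at day 1, 10 of the higher and 9 of the lower held under every other scaling, tool, filter and left-out sample tried; at day 3 these were 10 and 5. Without day 3 replicate 1, 8 in place of 14 genes were higher at day 3 than at day 1.

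**Figure D1:**
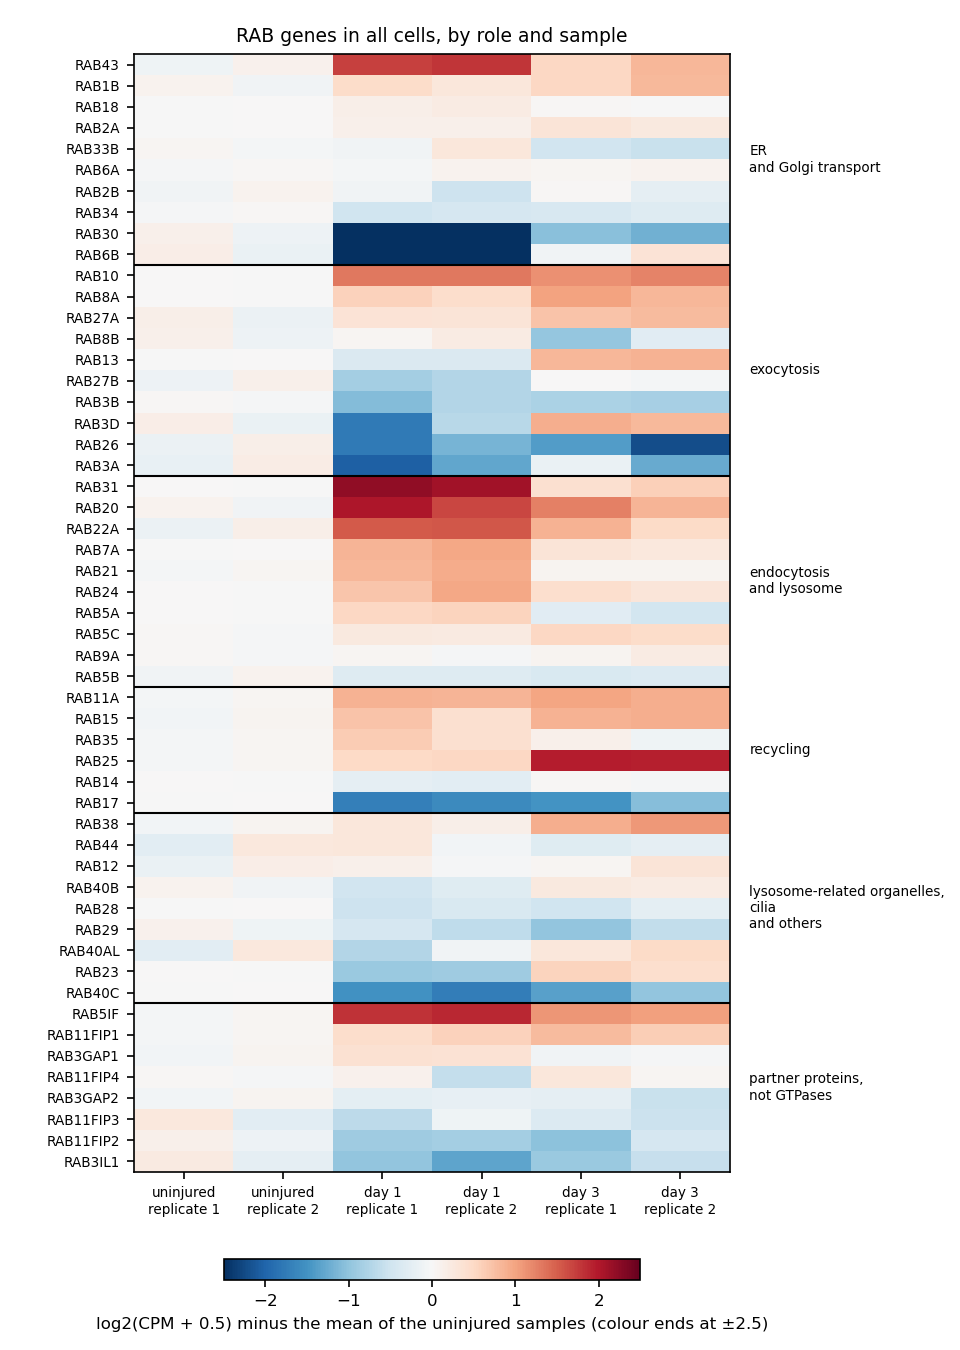
Level of the 53 tested RAB genes in each sample, as log2(CPM + 0.5) minus the mean of the 2 uninjured samples, with red for higher and blue for lower and colours ending at ±2.5. Genes are grouped by role and ordered by their day 1 change. Most endocytic genes are red at day 1 and paler at day 3. RAB6B and RAB30 have 0 gene counts at day 1, though the isoform counts hold a few of each.

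Of the 10 tested genes of endocytosis and the lysosome, 8 were higher at day 1 and 0 lower, against 30.5% and 31.7% of all genes. RAB5B and RAB9A did not pass the test, and the median log2 change of the 10 genes was 0.86. By unadjusted p under 0.05 the counts were also 8 and 0, and DESeq2 called 7 and 0. At day 3, 6 were higher and 1 lower than in uninjured cornea (median 0.32), against 28.8% and 26.4% of all genes. Set against day 1, 1 was higher at day 3 and 7 lower, against 30.5% and 28.8% of all genes. With scaling to total counts alone the day 1 split was 6 higher and 2 lower, and the day 3 split turned to 1 higher and 4 lower. Of all genes called under that scaling, 29.1% were higher at day 1 and 24.2% at day 3. The direction of the day 3 median of these endocytic genes thus depends on the scaling.

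RAB31, which carries cargo between the trans-Golgi network and endosomes, was at 28.5 and 27.7 CPM in the uninjured samples, against 132 and 122 on day 1 and 37.1 and 42.7 on day 3. Both day 1 samples lay far above the other 4, and the groups did not overlap. The log2 change was 2.18 (SE 0.09, adjusted p = 6.22e-09) at day 1 and 0.50 (SE 0.11, adjusted p = 0.0027) at day 3, and the day 3 call was lost with scaling to total counts alone (adjusted p = 0.536). RAB20, a GTPase of maturing endosomes and phagosomes, was at 7.17 and 6.28 CPM before injury, 28.6 and 22.5 at day 1 and 16.8 and 12.5 at day 3. It was highest at day 1 and lowest without injury, with no overlap, and log2 changes of 1.94 (SE 0.20, adjusted p = 6.68e-06) and 1.13 (SE 0.22, adjusted p = 0.00121).

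RAB22A, which acts at early endosomes, had the same order, with 20.1 and 24.8, 65.7 and 66.9 and 41 and 31.1 CPM in uninjured, day 1 and day 3 samples. Its log2 change was 1.55 (SE 0.14, adjusted p = 1.79e-06) at day 1 and 0.68 (SE 0.15, adjusted p = 0.00247) at day 3, the latter lost with scaling to total counts alone (adjusted p = 0.151). RAB7A, the GTPase that takes late endosomes to the lysosome, was at 163 and 164 CPM before injury, 295 and 322 at day 1 and 204 and 195 at day 3. Its rise at day 1 was 0.91 (SE 0.08, adjusted p = 1.27e-06) on the log2 scale. The day 3 value of 0.29 (SE 0.08, adjusted p = 0.00894) was smaller, and that call was lost with scaling to total counts alone and without uninjured replicate 1, uninjured replicate 2 or day 3 replicate 1 (adjusted p = 0.0559 to 0.182), with a change of sign under total counts.

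Markers of immune cells were set beside these values. The 8 immune markers in the tables summed to 154 to 197 CPM in uninjured samples, against 210.3 to 229 on day 1 and 152 to 181 on day 3. Most of these counts came from LYZ, with 555 and 683 in uninjured samples, 717 and 519 on day 1 and 797 and 583 on day 3. CD74 had 77 and 215 counts in uninjured samples, against 248 and 118 on day 1 and 24 and 31 on day 3. CD68, a lysosomal protein of macrophages and other cells, had 21 and 30 counts in uninjured samples, against 150 and 140 on day 1 and 51 and 44 on day 3, while PTPRC, TYROBP and AIF1 had at most 18 counts in any sample. The part of immune cells in the rise of RAB31 and RAB20 was not tested.

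RAB21, which binds integrins and guides their internalisation, was at 94 and 101, 174 and 185 and 102 and 102 CPM in the 3 groups. Its log2 change of 0.88 (SE 0.08, adjusted p = 1.47e-06) at day 1 was followed by 0.06 (SE 0.08, adjusted p = 0.52) at day 3. RAB24, linked to autophagy, was at 70.7 and 69.9 CPM without injury, 115 and 137 at day 1 and 94.2 and 86.3 at day 3. Both day 1 samples were again above all others, by 0.83 (SE 0.10, adjusted p = 1.56e-05) on the log2 scale.

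The 3 RAB5 genes, which encode the GTPases of early endosome fusion, did not move together. RAB5A was at 163 and 161 CPM in uninjured samples, against 231 and 238 on day 1 and 132 and 117 on day 3. It was the one gene of the family called higher at day 1, 0.53 (SE 0.08, adjusted p = 0.000108), and lower at day 3, -0.37 (SE 0.08, adjusted p = 0.00225); the day 1 call was lost with scaling to total counts alone (adjusted p = 0.0507). RAB5C was at 79.5 and 76.6, 93 and 91 and 112 and 108 CPM, with log2 changes of 0.24 (SE 0.08, adjusted p = 0.0182) and 0.50 (SE 0.08, adjusted p = 0.000178). The day 3 value was lost with scaling to total counts alone (adjusted p = 0.414) and the day 1 value with scaling to total counts alone, in DESeq2 and without uninjured replicate 1, uninjured replicate 2 or day 1 replicate 1 (adjusted p = 0.0519 to 0.297). RAB5B, with 15.3 and 17.4, 13 and 13 and 12.4 and 12.8 CPM, did not pass the test on either day (log2 -0.34 and -0.38). RAB9A, which returns receptors from late endosomes to the Golgi, did not pass either, at log2 0.01 and 0.14.

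The recycling GTPases return receptors and integrins from endosomes to the surface. Of 6 tested, 4 were higher and 2 lower at day 1, against 30.5% and 31.7% of all genes. At day 3, 3 were higher and 1 lower, against 28.8% and 26.4% of all genes. With scaling to total counts alone the splits of the 6 genes were 1 higher and 2 lower, and 3 higher and 3 lower. Of all genes called under that scaling, 29.1% and 24.2% were higher. RAB25, the epithelial relative of RAB11A, was at 128 and 137 CPM in uninjured samples, against 186 and 189 on day 1 and 516 and 508 on day 3. The 2 day 3 samples were more than 2.5 times any other sample. The log2 change was 0.50 (SE 0.08, adjusted p = 0.000187) at day 1, 1.95 (SE 0.08, adjusted p = 3.67e-09) at day 3 and 1.45 (SE 0.08, adjusted p = 5.41e-08) from day 1 to day 3. The day 1 call was lost with scaling to total counts alone (adjusted p = 0.0977).

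RAB11A, the central GTPase of the recycling endosome, was at 167 and 179 CPM without injury, 315 and 312 at day 1 and 344 and 323 at day 3. Both injured groups lay above the uninjured samples, by 0.86 (SE 0.08, adjusted p = 2.39e-06) and 0.95 (SE 0.08, adjusted p = 1.38e-06) on the log2 scale. They did not differ from each other by the test, at 0.09 (SE 0.08, adjusted p = 0.342). RAB15, which acts between early and recycling endosomes, went from 9.76 and 10.6 CPM to 17 and 13.6 and 19.1 and 19.6, with log2 changes of 0.59 (SE 0.17, adjusted p = 0.0106) and 0.92 (SE 0.16, adjusted p = 0.000578). Its day 1 call was lost with scaling to total counts alone, in DESeq2 and without uninjured replicate 1 or day 1 replicate 1 (adjusted p = 0.0562 to 0.218).

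RAB17, an epithelial GTPase of apical recycling and transcytosis, fell. It was at 11.8 and 12 CPM in uninjured samples, against 3.31 and 3.61 on day 1 and 3.91 and 5.39 on day 3. All 4 injured samples were below both uninjured ones, with log2 changes of -1.78 (SE 0.25, adjusted p = 8.36e-05) and -1.36 (SE 0.23, adjusted p = 0.000455). RAB35, of the fast recycling route, was at 26.1 and 27.7, 42.3 and 35.8 and 29.5 and 25 CPM, a log2 change of 0.54 (SE 0.13, adjusted p = 0.00389) at day 1 and of 0.02 at day 3, which was not called. The day 1 call of RAB35 was lost with scaling to total counts alone, in DESeq2 and without day 1 replicate 1 (adjusted p = 0.0535 to 0.192). RAB14, which moves membrane between the Golgi and endosomes, was at 224 and 223, 190.4 and 185 and 228 and 218 CPM, with a log2 change of -0.25 (SE 0.07, adjusted p = 0.0108) at day 1 that was lost without uninjured replicate 1 or uninjured replicate 2 (adjusted p = 0.0608 to 0.0619).

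**Figure D2:**
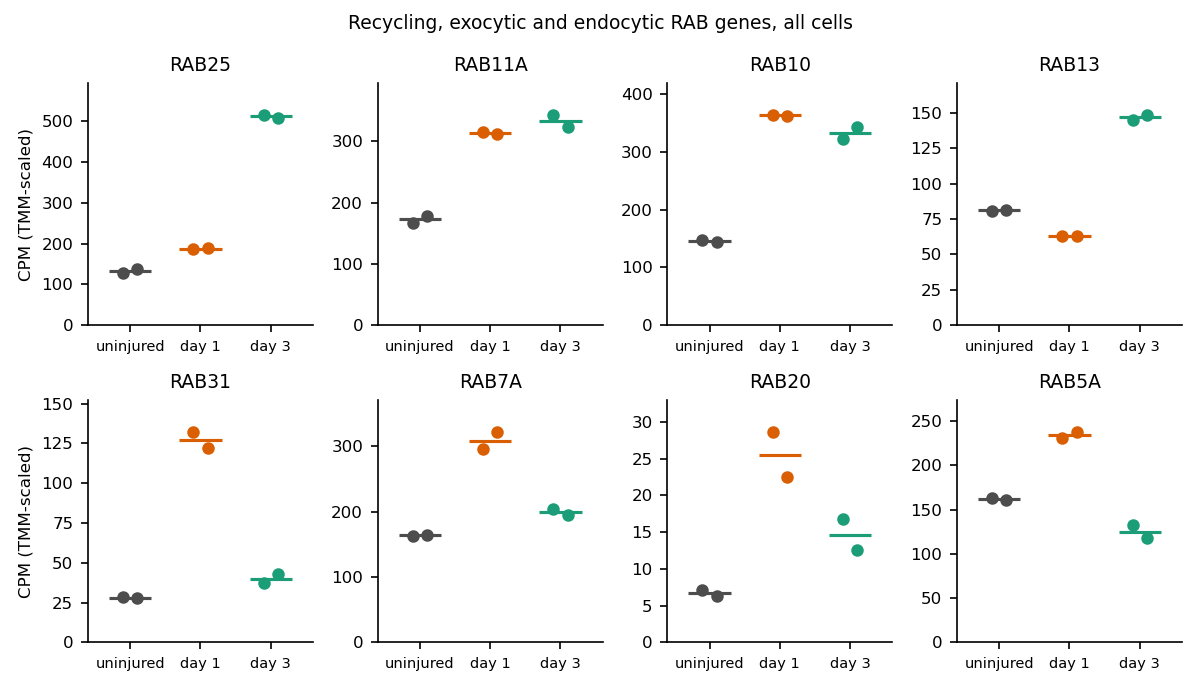
Levels of 8 RAB genes in CPM over all cells, 1 point per sample with a line at the mean of the 2 samples of a group and every axis from 0. RAB25 is highest at day 3, RAB31, RAB7A, RAB20 and RAB5A are highest at day 1, RAB10 and RAB11A are raised on both days, and RAB13 is lowest at day 1 and highest at day 3.

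Exocytic genes fell more often than they rose at day 1 and the reverse held at day 3. Of 10 tested, 2 were higher and 6 lower at day 1 (median log2 -0.60), against 30.5% and 31.7% of all genes. At day 3, 5 were higher and 3 lower (median 0.37), against 28.8% and 26.4% of all genes. From day 1 to day 3, 6 rose and 1 fell, against 30.5% and 28.8% of all genes. With scaling to total counts alone the day 1 split was 1 higher and 6 lower and the day 3 split 3 higher and 5 lower. From day 1 to day 3 it was 4 higher and 2 lower. Of all genes called under that scaling, 29.1% were higher at day 1, 24.2% at day 3 and 46.0% from day 1 to day 3. The turn of the day 3 balance is thus not particular to exocytic genes.

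The 2 that rose at day 1 serve constitutive traffic to the surface. RAB10, a GTPase of basolateral delivery, was at 147 and 144 CPM in uninjured samples, against 364 and 362 on day 1 and 322 and 342 on day 3. Every injured sample was more than 2 times every uninjured one, with log2 changes of 1.32 (SE 0.08, adjusted p = 6e-08) and 1.19 (SE 0.08, adjusted p = 1.8e-07). RAB8A, which acts in delivery to the apical surface and the cilium, was at 31.5 and 31, 46.9 and 42.7 and 63.6 and 56.2 CPM. Its log2 change was 0.53 (SE 0.11, adjusted p = 0.00142) at day 1, lost with scaling to total counts alone (adjusted p = 0.158), and 0.94 (SE 0.10, adjusted p = 1.51e-05) at day 3. RAB13, which is known for the assembly of tight junctions, went from 80.9 and 81.5 CPM to 63.2 and 62.7 at day 1 and 145 and 149 at day 3. Its day 1 samples were the lowest and the day 3 samples the highest, with log2 changes of -0.37 (SE 0.08, adjusted p = 0.00186) and 0.85 (SE 0.07, adjusted p = 1.54e-06).

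Regulated secretion, in which stored granules fuse on a signal, is the work of RAB3A, RAB3B, RAB3D, RAB26, RAB27A and RAB27B. All but RAB27A were lower at day 1. RAB3D was at 8.97 and 6.98 CPM before injury, 1.98 and 4.72 at day 1 and 15.2 and 14.2 at day 3, so the 3 groups did not overlap. The log2 change was -1.30 (SE 0.34, adjusted p = 0.00563) at day 1 and 0.89 (SE 0.24, adjusted p = 0.00744) at day 3. The day 1 call was lost without day 1 replicate 1 (adjusted p = 0.0727) and the day 3 call with scaling to total counts alone, in DESeq2 and without uninjured replicate 2 or day 3 replicate 1 (adjusted p = 0.0524 to 0.149), while the rise from day 1 to day 3, 2.19 (SE 0.31, adjusted p = 9.5e-05), held in every alternative. RAB3A was at 7.77 and 10.1, 1.76 and 3.33 and 7.83 and 3.43 CPM. It fell at day 1 by 1.86 on the log2 scale (SE 0.42, adjusted p = 0.00227); at day 3 one sample lay among the uninjured ones and the other below them, with a value of -0.66 (SE 0.34, adjusted p = 0.122) that passed without day 3 replicate 1 (adjusted p = 0.021) and with total counts alone (adjusted p = 0.0127).

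RAB26, which recruits secretory granules, was at 7.77 and 9.77 CPM in uninjured samples, against 2.2 and 3.61 on day 1 and 2.99 and 1.47 on day 3. All injured samples were below the uninjured ones, with log2 changes of -1.63 (SE 0.35, adjusted p = 0.00172) and -1.95 (SE 0.36, adjusted p = 0.000806). RAB27B, which docks granules and exosome-bearing bodies, was at 21.5 and 25.6, 12.8 and 13.9 and 23.7 and 22.6 CPM, lower at day 1, -0.83 (SE 0.16, adjusted p = 0.000698), and at log2 -0.03 at day 3, which was not called. Its relative RAB27A was at 12.4 and 10.1, 14.3 and 14.2 and 18.7 and 19.6 CPM and rose at day 3, 0.77 (SE 0.16, adjusted p = 0.00146), a call lost with scaling to total counts alone (adjusted p = 0.0717). RAB3B went from 9.76 and 9.24 CPM to 4.19 and 5.55 and 5.3 and 5.15, with log2 changes of -0.98 (SE 0.24, adjusted p = 0.00435) and -0.86 (SE 0.24, adjusted p = 0.00924). Both were lost in DESeq2 (adjusted p = 0.0995 and 0.175).

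**Figure D3:**
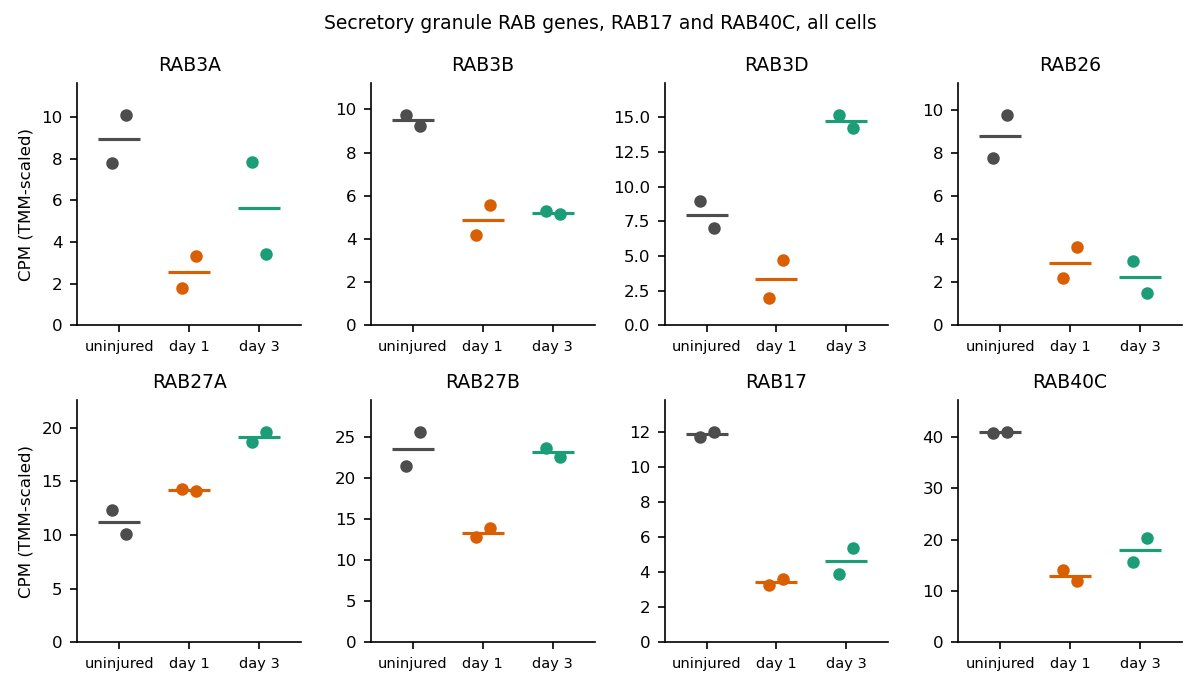
Levels in CPM over all cells of 6 RAB genes of regulated secretion and of RAB17 and RAB40C, 1 point per sample with a line at the mean of the 2 samples of a group and every axis from 0. RAB3A, RAB3B, RAB3D, RAB26, RAB27B, RAB17 and RAB40C are lower at day 1 than in uninjured samples, and RAB3D and RAB27A are highest at day 3.

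Between the endoplasmic reticulum and the Golgi, 2 genes were higher and 3 lower at day 1 and 2 were higher and 2 lower at day 3, of 10 tested. The shares of all genes were 30.5% and 31.7% at day 1 and 28.8% and 26.4% at day 3. With total counts alone the splits of the 10 genes were 1 higher and 6 lower, and 0 higher and 6 lower. Among all genes called under that scaling, 29.1% and 24.2% were higher. RAB43, a Golgi GTPase, was at 15.1 and 17.4 CPM in uninjured samples, against 54.4 and 57.4 on day 1 and 23.5 and 29.2 on day 3. It was highest at day 1 without overlap, at 1.77 (SE 0.14, adjusted p = 5.69e-07), and the day 3 value of 0.68 (SE 0.15, adjusted p = 0.00261) was lost with scaling to total counts alone (adjusted p = 0.162). RAB6B, a Golgi GTPase best known from neurons, had 32 gene counts in the uninjured samples, against 0 on day 1 and 28 on day 3. The isoform counts, which are described below, held 8 of RAB6B in day 1 replicate 2, in cells that the gene counts cover. No bound is therefore given for its fall, and its day 1 call rests on the gene counts alone. RAB30, also of the Golgi, had 31 gene counts without injury, 0 at day 1 and 9 at day 3. Its isoform counts were 9 and 9 in uninjured samples and 2 in day 1 replicate 1. No bound is given for RAB30 either. The untested RAB19 had 13 gene counts without injury and 0 on both days. Set against a floor of 3 counts over the group, it was at least 3.35-fold lower at day 1 and 3.46-fold lower at day 3.

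RAB33B, which links the Golgi to autophagy, was at 12 and 11, 10.8 and 14.2 and 8.06 and 7.6 CPM, and its day 3 call, -0.54 (SE 0.20, adjusted p = 0.0406), was lost in DESeq2 and without uninjured replicate 1, uninjured replicate 2, day 3 replicate 1 or day 3 replicate 2 (adjusted p = 0.0799 to 0.324). RAB2A, of transport from the endoplasmic reticulum, was at 185 and 187, 203 and 203 and 232 and 221 CPM, an increase at day 3 of 0.29 (SE 0.07, adjusted p = 0.00541) that was lost with scaling to total counts alone and without day 3 replicate 1 (adjusted p = 0.0526 to 0.138). RAB6A and RAB18, the first a main GTPase of the Golgi and the second known from lipid droplets, had log2 changes between 0.01 and 0.18 over both days. RAB18 passed the test at day 1 only, a call kept in 1 of 9 alternatives. It was lost with scaling to total counts alone, where the sign changed, in DESeq2, without the low-count filter and with the replicate number as a block. Leaving out uninjured replicate 1, uninjured replicate 2, day 1 replicate 1 or day 1 replicate 2 also lost it. RAB1B had 26 to 35 counts a group and did not pass; its sequence is close to that of RAB1A, and how reads of the pair were assigned is not known.

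Among the remaining GTPases 0 were higher and 4 lower at day 1, of 9 tested, against 30.5% and 31.7% of all genes. At day 3, 1 was higher and 3 lower, against 28.8% and 26.4% of all genes. By unadjusted p under 0.05 the day 1 counts were 0 and 5, and DESeq2 called 0 and 1. RAB40C, a RAB with a domain that joins ubiquitin ligases, was at 40.8 and 41 CPM without injury, 14.1 and 11.9 at day 1 and 15.7 and 20.4 at day 3. All injured samples were at or under 20.4 CPM, with log2 changes of -1.64 (SE 0.16, adjusted p = 3.29e-06) and -1.19 (SE 0.15, adjusted p = 3.29e-05). RAB38, known for melanosome biogenesis, was at 32.1 and 35.2, 41.2 and 37.2 and 63.6 and 71.6 CPM and rose at day 3 by 1.00 (SE 0.10, adjusted p = 9.06e-06). The 7 melanocyte markers summed to at least 76.8 CPM in each uninjured sample and 22.3 to 33.5 CPM after injury. KIT held most of these counts in uninjured samples (267 and 373), against 38 and 33 on day 1 and 81 and 59 on day 3, so the lower sum was mainly KIT. PMEL had 37 and 59 counts in uninjured samples, against 35 and 36 on day 1 and 38 and 39 on day 3. TYR had at most 5 counts in any sample, and MLANA, TYRP1, DCT and MITF at most 29. The part of melanocytes in the RAB38 and RAB27A values was not tested.

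RAB29, a GTPase of the Golgi and the lysosome, was at 38.1 and 32.6, 26.2 and 22.5 and 17.5 and 22.8 CPM, with log2 changes of -0.52 (SE 0.15, adjusted p = 0.0105) and -0.81 (SE 0.16, adjusted p = 0.00103); the first was lost in DESeq2 and without uninjured replicate 1 or day 1 replicate 2 (adjusted p = 0.0552 to 0.114). RAB28, of the cilium, was at 27.5 and 27.9, 19.2 and 21.1 and 19.3 and 23.3 CPM. Its calls of -0.47 (SE 0.14, adjusted p = 0.0136) and -0.38 (SE 0.14, adjusted p = 0.0366) were lost, the first in DESeq2 and without day 1 replicate 1 (adjusted p = 0.0855 to 0.169) and the second in DESeq2 and without uninjured replicate 1, uninjured replicate 2 or day 3 replicate 1 (adjusted p = 0.0742 to 0.318). RAB40AL had 10 to 21 counts a group and is uncertain, because near-identical RAB40 copies exist.

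Of the 8 partner proteins, 3 were higher and 2 lower at day 1, against 30.5% and 31.7% of all genes. At day 3, 2 were higher and 2 lower, against 28.8% and 26.4% of all genes. RAB5IF, a membrane protein first named for binding RAB5, was at 84.1 and 91.1 CPM in uninjured samples, against 308 and 325 on day 1 and 188 and 178 on day 3. Its 3 groups did not overlap, and the log2 changes were 1.85 (SE 0.08, adjusted p = 6.74e-09) and 1.06 (SE 0.08, adjusted p = 8.53e-07). RAB11FIP1, an effector through which RAB11A and RAB25 act, was at 96 and 103, 136 and 149 and 172 and 153 CPM. Its rise was 0.51 (SE 0.09, adjusted p = 0.000369) at day 1, lost with scaling to total counts alone (adjusted p = 0.118), and 0.71 (SE 0.09, adjusted p = 3.4e-05) at day 3.

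RAB11FIP2, which links RAB11 vesicles to myosin, went the other way, with 17.5 and 14.5, 8.37 and 8.6 and 7.6 and 11.8 CPM. Its log2 changes were -0.91 (SE 0.22, adjusted p = 0.0034) and -0.72 (SE 0.21, adjusted p = 0.0117), the first lost in DESeq2 (adjusted p = 0.0635) and the second in DESeq2 and without uninjured replicate 1 or day 3 replicate 1 (adjusted p = 0.0898 to 0.177). RAB3IL1, an exchange factor for RAB3A and RAB8, had 38, 11 and 16 counts in the 3 groups, and its day 1 call of -1.38 (SE 0.52, adjusted p = 0.0361) was lost in DESeq2 and without uninjured replicate 1, uninjured replicate 2, day 1 replicate 1 or day 1 replicate 2 (adjusted p = 0.0681 to 0.23). RAB3GAP1 and RAB3GAP2, the subunits of a complex that switches RAB3 off and RAB18 on, had log2 changes of 0.38 and -0.24 at day 1. The first passed the test, a call lost at least with scaling to total counts alone and in DESeq2. The second did not pass.

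The genes that switch, anchor or read the RAB proteins were taken from 6 lists, whose counts at day 1 stand beside the 62.2% of all genes called. With total counts alone 8190 of 12294 genes were called at day 1, 29.1% of them higher. DESeq2 called 5314, 53.2% of them higher. Of 8 tested genes of prenylation and recycling of the GTPase, 4 were higher and 0 lower at day 1 (2 higher and 2 lower with total counts alone). RABGGTB and RABGGTA, the subunits of the enzyme that prenylates RAB proteins, were both among them. RABGGTB was at 17.5 and 20.4, 50.9 and 58 and 22.8 and 21.3 CPM in the 3 groups, a log2 change of 1.51 (SE 0.13, adjusted p = 1.4e-06) at day 1. By unadjusted p under 0.05 the list's counts were also 4 and 0, and DESeq2 called 2 and 0. PTP4A1, a prenylated phosphatase that is itself no part of the enzyme, is on this list and is 1 of the 4 higher genes. It had the largest change in the list, a log2 change of 2.57 (SE 0.08, adjusted p = 8.6e-10) to 939 and 923 CPM.

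Of 31 exchange factors, 11 were higher and 6 lower at day 1 (7 higher and 13 lower with total counts alone, 8 higher and 2 lower in DESeq2). DENND1B, an exchange factor for RAB35, was at 12.8 and 14.7 CPM in uninjured and 58.6 and 70.5 at day 1, a log2 change of 2.22 (SE 0.14, adjusted p = 9.74e-08). Of 32 GTPase-activating proteins, 5 were higher and 19 lower (5 higher and 20 lower with total counts alone), and in DESeq2 5 were higher and 9 lower. Their median log2 change was -0.39, beside -0.06 for all genes. TBC1D19 fell from 7.77 and 7.33 to 0.881 and 1.66 CPM, while USP6NL, which acts on RAB5, rose from 10.8 and 8.9 to 30.0 and 33.9 (1.70 (SE 0.15, adjusted p = 2.22e-06)).

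Of 31 secretory effectors, 6 were higher and 11 lower at day 1 (2 higher and 15 lower with total counts alone, 2 higher and 7 lower in DESeq2). SYTL1, a synaptotagmin-like protein that binds RAB27, fell from 100.4 and 121 to 36.8 and 40.8 CPM and was at 107 and 97.3 at day 3. Of 27 endocytic effectors, 4 were higher and 7 lower (2 higher and 17 lower with total counts alone, 3 higher and 3 lower in DESeq2). Of 17 recycling effectors, 8 were higher and 6 lower (6 higher and 9 lower with total counts alone, 7 higher and 3 lower in DESeq2). EHD4, which shapes endosomal membrane, rose from 12.8 and 12.9 CPM to 151 and 142 at day 1, 3.51 (SE 0.13, adjusted p = 1.93e-09), and was at 31.1 and 21.8 at day 3. EHD2, of the same family, fell from 9.96 and 13.3 to 1.76 and 4.44 CPM.

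To set the genes against the state of the cells, cells were ranked by keratin and differentiation markers that are no RAB genes. In each sample the 15% of cells highest in conjunctival markers were set apart, and the other cells were ranked by the mean of basal markers minus that of differentiation markers. The third of them with the highest score is called the basal range and the third with the lowest score the differentiated range. These are ranges of a score and not cell types: 10 to 35 cells of each lay within 0.05 of the limit of the range in each sample. KRT14, a basal keratin, had a median of 31.6 to 211 counts per 10000 in basal cells, and of 0 in differentiated cells except at day 3, where it was 52.2 and 67.2. KRT12, the keratin of differentiated corneal epithelium, had a median of 242 to 309 in the differentiated range and of 0 to 3.43 in the basal range. The basal range did not hold cells of the same marker levels on each day. Its basal markers summed to 27844 and 27948 CPM in uninjured samples, 10930 and 12293 on day 1 and 38992 and 37055 on day 3. The basal keratin KRT15 was there at 11876 and 11502, 679 and 672 and 656 and 705 CPM. A change within a range is thus no change within a fixed cell state. Basal cells were also shallower, with 1474 to 3444.5 counts per cell at the median against 3495 to 5043.

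Of 45 RAB genes tested between the ranges, 7 were higher and 17 lower in the basal range in uninjured cornea, against 39% called among all genes (19.4% higher and 19.6% lower). At day 1 the counts were 7 and 18, against 42% (21.3% and 20.7%), and at day 3 they were 7 and 20, against 37.8% (18.9% and 18.8%). DESeq2 called 2595 of 10536 genes in uninjured and 2488 in day 3 samples, 51.4% and 49.5% of them higher. Among the RAB genes it called 3 and 10 in uninjured and 2 and 12 in day 3 samples. Leaving out uninjured replicate 1 gave 4 and 11, and leaving out day 3 replicate 1 gave 2 and 12; without day 3 replicate 2, the higher count was 3. Of the 6 recycling genes, 5 were lower in the basal range in uninjured samples, 4 at day 1 and all 6 at day 3.

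RAB25 was at 67.7 and 70.4 CPM in the basal range and 158 and 174 in the differentiated range of uninjured samples. At day 1 it was at 66.6 and 45.4 and 213 and 216, and at day 3 at 63.6 and 85.3 and 883 and 837. Basal values thus lay between 45.4 and 85.3 in all 6 samples, while both day 3 values of the differentiated range were above all others. The conjunctival-marker-high cells were at 212 and 203 CPM before injury and 704 and 719 at day 3. Basal minus differentiated log2 differences were -1.27 (SE 0.14, adjusted p = 3.06e-10) in uninjured cornea, -1.91 (SE 0.15, adjusted p = 6.46e-15) at day 1 and -3.54 (SE 0.10, adjusted p = 1.19e-30) at day 3. The difference changed by -2.27 (SE 0.21, adjusted p = 9.11e-12) at day 3, and by -0.64 (SE 0.23, adjusted p = 0.0422) at day 1, the latter lost under 8 of 10 alternatives, among them leaving out either uninjured replicate or day 1 replicate 2 (adjusted p = 0.164 to 0.355).

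RAB11A had a difference of similar size on each day, with -1.48 (SE 0.12, adjusted p = 4.19e-14), -1.64 (SE 0.10, adjusted p = 3.69e-18) and -1.37 (SE 0.09, adjusted p = 3.04e-17). It rose in both ranges, from 79 and 82 to 167 and 163 CPM in the basal range and from 214 and 237 to 445 and 410.3 in the differentiated range. Their effector RAB11FIP1 was at 20.1 and 20.8 CPM in the basal and 117 and 126 in the differentiated range of uninjured samples. At day 3 these were 30.9 and 24.2 and 236 and 227, a log2 difference of -3.06 (SE 0.16, adjusted p = 2.9e-21). In each of the 6 samples its level was highest in the conjunctival-marker-high cells.

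RAB17 was counted mostly in the differentiated one of these 2 ranges. In uninjured samples it had 2 counts in the basal and 89 in the differentiated range, a ratio of levels of 17.8 with a counting interval of 4.78 to 149. At day 3 it had 0 and 14 counts, at least 3.75-fold lower in the basal range by the floor of 3 counts over the group. RAB3B was similar, with 1 and 93 counts in uninjured samples, a ratio of 37.2 (counting interval 6.51 to 1483). RAB26 was the opposite, with 48 counts in the basal and 3 in the differentiated range of uninjured samples, a ratio of 40.0 (12.9 to 201). RAB13 and RAB2B were also higher in the basal than in the differentiated range in 6 of 6 samples.

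**Figure D4:**
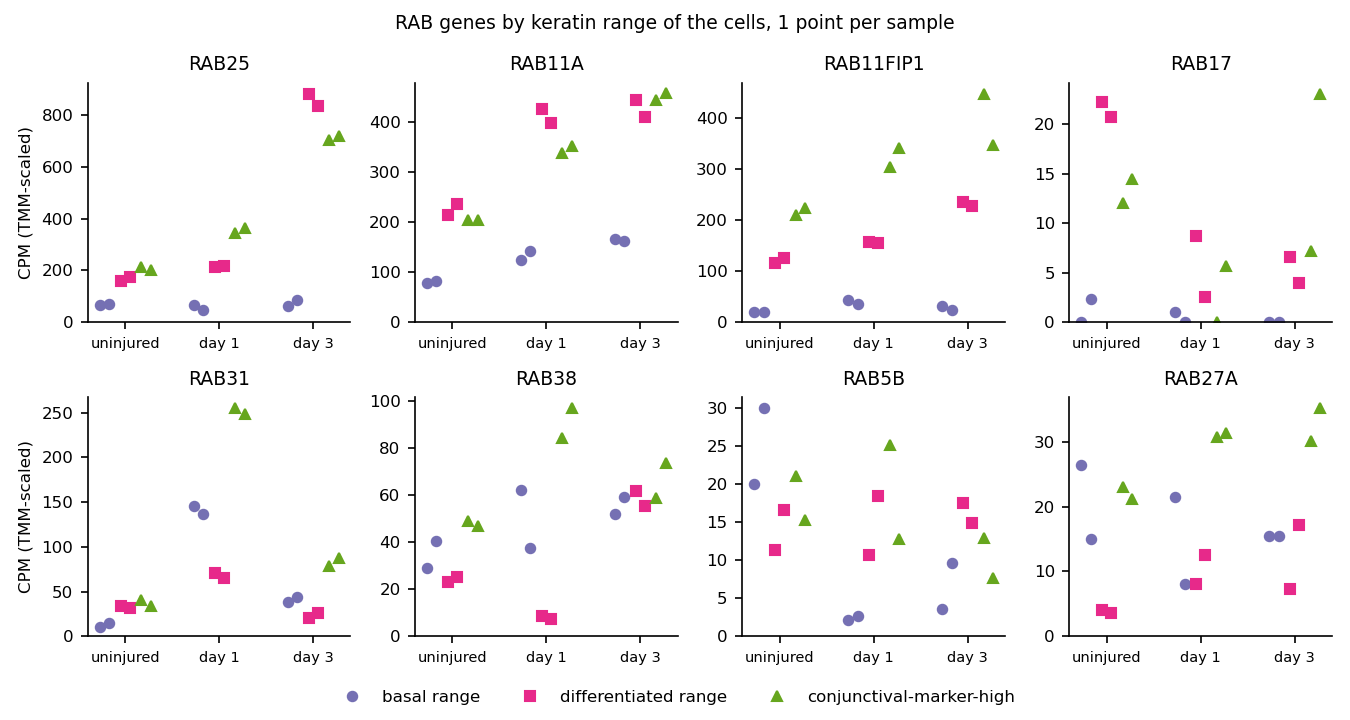
Levels in CPM of 8 RAB genes by range of the cells, 1 point per sample and range (circles basal, squares differentiated, triangles conjunctival-marker-high), with every axis from 0. RAB25 stays between 45.4 and 85.3 CPM in the basal range while it climbs in the other cells, and RAB31 passes from lower to higher in the basal range at day 1.

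Some differences between the ranges changed with injury: for 8 RAB genes the basal minus differentiated difference was higher at day 1 than in uninjured cornea and for 9 lower, against 18.2% called among all genes (9.82% and 8.33%). At day 3 it was higher for 8 and lower for 8, against 18.1% (9.83% and 8.29%). DESeq2 called such a change for 807 of 10536 genes at day 1 and 1022 at day 3, 59.1% and 49.3% of them higher. Among the RAB genes it called 3 and 2 at day 1 and 2 and 4 at day 3. Without 1 of the 4 samples of a comparison, the day 1 counts were 4 or 5 in each direction whichever sample was left out, and the day 3 counts 3 to 5 higher and 5 to 8 lower. The lower count at day 3 was 5 without uninjured replicate 1 and also without uninjured replicate 2. RAB31 turned over. It was at 10.0 and 15 CPM in the basal range of uninjured samples and 34 and 31.9 in the differentiated range. At day 1 the basal range was at 146 and 136 and the differentiated range at 70.6 and 65.4.

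The basal minus differentiated log2 difference of RAB31 was -1.38 (SE 0.29, adjusted p = 0.000137) before injury and 1.05 (SE 0.14, adjusted p = 3.3e-08) at day 1, a change of 2.43 (SE 0.31, adjusted p = 8.66e-08). At day 3 the levels were 38.1 and 43.6 and 20.4 and 25.8 CPM, and the change was 2.20 (SE 0.37, adjusted p = 1.11e-05); both changes held in all 10 alternatives. In the conjunctival-marker-high cells RAB31 was at 41.1 and 33.9 CPM before injury, 255 and 248 at day 1 and 78.7 and 87.3 at day 3, above both ranges in 6 of 6 samples. CD68 counts of the 2 samples summed went from 13 to 59 in the basal range, from 5 to 42 in the differentiated range and from 21 to 144 in the conjunctival-marker-high cells at day 1. TYROBP had 0 counts in the first 2 on both occasions and went from 0 to 8 in the last. In the same order of cells, LYZ went from 201 to 262, from 249 to 85 and from 595 to 779. CD74 went from 3 to 6, from 165 to 178 and from 23 to 104. The part of immune cells in these values was not tested. RAB24 was highest in the conjunctival-marker-high cells in 5 of 6 samples, and moved in opposite directions in the basal and differentiated ranges. At day 1 it fell from 71.5 and 60.0 to 31.2 and 36.1 CPM in the basal range and rose from 81 and 88.1 to 145 and 167 in the differentiated range, a change of the difference of -1.84 (SE 0.27, adjusted p = 9.38e-07).

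RAB38 was at 28.8 and 40.4 CPM in the basal and 23.2 and 25.2 in the differentiated range without injury, and at 62.3 and 37.4 and 8.74 and 7.55 at day 1. Its difference changed by 2.10 (SE 0.41, adjusted p = 0.000147) at day 1. At day 3 the ranges were close, at 51.8 and 59.1 and 61.9 and 55.5 CPM. In 5 of 6 samples the RAB38 level was highest in the conjunctival-marker-high cells. The melanocyte marker KIT had 3, 504 and 25 counts in basal, differentiated and conjunctival-marker-high cells of uninjured samples. In that order TYRP1 had 1, 13 and 2 and MITF 3, 11 and 1. PMEL had 18, 29 and 27 there, 12, 10 and 29 at day 1 and 6, 16 and 29 at day 3. MLANA had 5, 9 and 5 in uninjured samples and 4, 2 and 11 at day 1. The part of melanocytes in the RAB38 levels of the ranges was not tested. RAB5B, not called over all cells, went in the basal range from 20.1 and 30.0 CPM to 2.15 and 2.67 at day 1. There it rested on 2 counts in each sample, and the difference changed by -3.35 (SE 0.72, adjusted p = 0.000625).

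RAB27A, highest in the conjunctival-marker-high cells in 5 of 6 samples, was at 26.3 and 15 CPM in the basal range of uninjured samples. In their differentiated range it was at 4.13 and 3.6 CPM, and at day 3 the ranges were at 15.4 and 15.5 and 7.28 and 17.2. The difference changed by -2.01 (SE 0.59, adjusted p = 0.0107), a call lost in DESeq2 and without uninjured replicate 1 or day 3 replicate 2 (adjusted p = 0.116 to 0.297). RAB13 went from 123 and 139.7 against 56.7 and 50.3 CPM to 166 and 173 against 134 and 136, a change of -0.97 (SE 0.18, adjusted p = 4.58e-05).

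Calls over all cells were set beside calls within the ranges. The cells of a range are part of the cells summed over all, so the same call in both is no independent support. The shares of all genes given here are those called within the range, whatever their call over all cells. Of the 19 RAB genes higher at day 1 over all cells, 11 were also higher within the basal range, where 52.8% of all genes tested were called (26.6% higher and 26.2% lower), and 13 within the differentiated range, where 51.7% were (26.2% and 25.5%). Of the 17 lower, 11 could be tested in the basal range and 8 were lower there, and 9 of 13 in the differentiated range. At day 3, 9 of 18 higher and 4 of 10 lower genes were called the same way in the basal range (42.7% of all genes called, 22.8% higher and 20% lower), and 14 of 19 and 7 of 11 in the differentiated range (44.1%, 24% and 20.1%). RAB24 alone, among genes called over all cells, was called in the opposite direction within a range, the basal one, on both days.

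The isoform tables, which split genes into transcripts, used one naming system in both uninjured samples and day 1 replicate 1, and another in the other 3, so only the first 3 tables were set side by side and no test was made. In them, transcripts that match a known one in full made up 60.6%, 60.8% and 61.1% of RAB isoform counts, and those with an unknown splice site 30.7%, 31.1% and 29.6%. All 119 isoform names shared by the 3 tables had the same gene and class. Of 13 RAB genes with at least 200 isoform counts in each table, the 5 with the largest shift of a share are described, and were chosen after their values were seen. The day 1 side is 1 sample, and the Wilson intervals cover counting error only.

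RAB7A shifted most. The isoform PB.3984.89, with an unknown splice site, was 66.4% and 64.4% of its counts in the uninjured samples and 35.7% (95% interval 33 to 38.5%) in the day 1 sample. PB.3984.312, of the same class, went from 26.2% and 25.9% to 50.9% (48 to 53.8%). The 2 isoforms changed places as the leading one.

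In RAB11A, the full match PB.57060.411 rose from 16.8% and 17.2% to 31.4% (29 to 34%). In RAB10, the full match PB.10300.507 went from 45% and 51.3% to 60.2% (56.9 to 63.3%), and the uninjured samples themselves differed by 6 points. In RAB25, the leading full match PB.27317.3159 went from 73.4% and 77.5% to 62.5% (59 to 65.8%). In RAB13, PB.30228.38 went from 80.5% and 78.2% to 68.6% (62.3 to 74.2%).

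**Figure D5:**
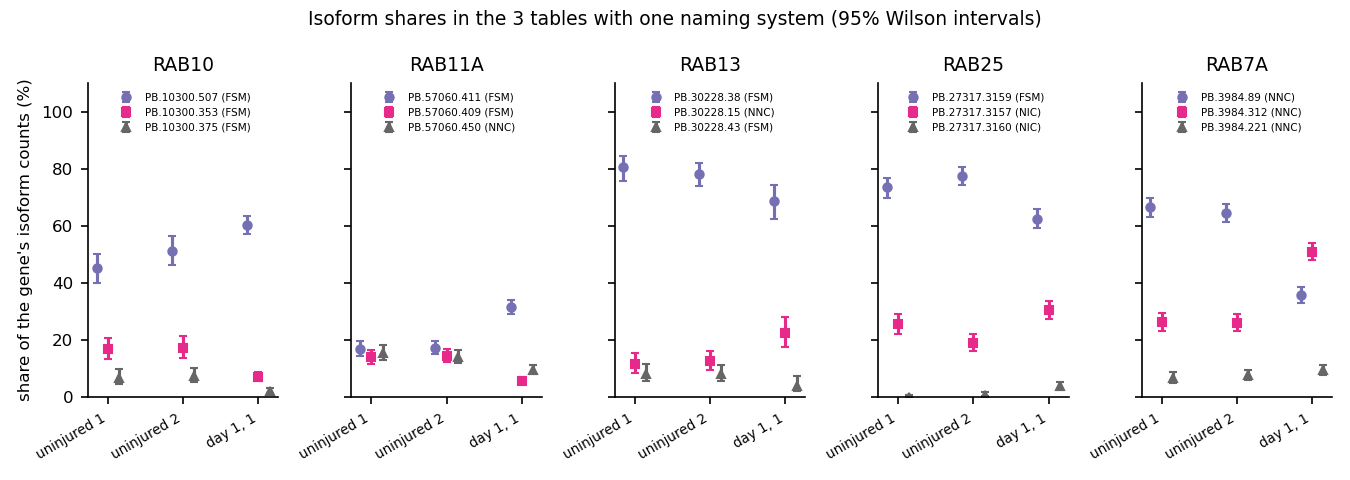
Share in percent of the isoform counts of 5 RAB genes held by the 3 isoforms that shifted most, in the 2 uninjured samples and 1 day 1 sample, with 95% Wilson intervals for counting error. The 2 RAB7A isoforms change places at day 1, and the first RAB11A isoform rises from 16.8% and 17.2% to 31.4%.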

How the data were processed

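Per the labels' protocols, cells were captured on the 10x Chromium controller and libraries made by HIT-scISOseq. The submitters' processing notes name Cell Ranger, with no version or role; the aligner, the build and the annotation were not given in the sources used here. The authors deposited a gene and an isoform table per sample, both unnormalised counts; whether gene counts come from long or short reads is not stated. No barcode was removed and no doublet caller was run; 8 of 7895 barcodes occurred in more than 1 sample.

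Counts were summed per sample, or per sample and range, and fitted with edgeR 4.0.16 (R 4.3.3): TMM, filterByExpr, quasi-likelihood F test, Benjamini-Hochberg threshold 0.05 over all genes tested. The range fit had the sample as a block. Tables were handled in Python 3.11.15 with pandas 2.3.3. Alternatives were total-count scaling, DESeq2 1.42.0, no filter, a replicate block, barcodes under 500 counts left out, each sample left out, and other limits of the ranges. The fit was tested on simulated data. Scores used mean log2(counts per 10000 + 1).

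RAB genes were named by rule: the 4 with the largest called change in each role, and the 8 with the largest difference between ranges; others were added after their values were seen. The members, roles and lists were chosen with earlier results of these data known. No sequence or gene position is given, because the reference used here held none for the build of the files.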

Additional observations from a re-analysis of the deposited data

Results flagged for a closer look

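For 15 RAB genes named here the basal minus differentiated log2 difference of an injured group differed from that of uninjured cornea by edgeR's test of that change, with 2 samples a group. The values that held in all 10 alternatives were those of RAB25 at day 3, -2.27 (adjusted p = 9.11e-12), RAB31 at day 1, 2.43 (adjusted p = 8.66e-08), and at day 3, 2.20 (adjusted p = 1.11e-05), and RAB24 at day 1, -1.84 (adjusted p = 9.38e-07), and at day 3, -1.18 (adjusted p = 0.000378). The same held for RAB38 at day 1, 2.10 (adjusted p = 0.000147), RAB5B at day 1, -3.35 (adjusted p = 0.000625), and RAB13 at day 3, -0.97 (adjusted p = 4.58e-05).

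The others were lost in at least 1 alternative. Of exocytic genes, these were RAB13 at day 1, -0.81 (adjusted p = 0.00926), RAB26 at day 3, -3.90 (adjusted p = 0.0482), RAB27A at day 1, -1.76 (adjusted p = 0.0376), and at day 3, -2.01 (adjusted p = 0.0107), RAB3A at day 3, -2.80 (adjusted p = 0.00636), and RAB3D at day 1, 2.55 (adjusted p = 0.0444). Of endocytic genes, they were RAB20 at day 1, 1.94 (adjusted p = 0.0296), RAB7A at day 1, 0.44 (adjusted p = 0.029), and RAB5B at day 3, -2.12 (adjusted p = 0.00478). The remaining ones were RAB25 at day 1, -0.64 (adjusted p = 0.0422), RAB15 at day 3, -3.26 (adjusted p = 0.000459), RAB43 at day 3, 1.59 (adjusted p = 0.0086), and RAB29 at day 3, 1.07 (adjusted p = 0.0402). RAB26 at day 3 rested on 8 counts in the basal and 4 in the differentiated range.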

How the results depend on the processing

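Counts of RAB genes higher and lower, in that order, moved as follows. With total counts alone they were 10 and 24 at day 1 and 10 and 26 at day 3 over all cells. At day 3 they were 7 and 9 within the basal and 10 and 20 within the differentiated range. Of all genes called under that scaling, 29.1% were higher at day 1 and 24.2% at day 3 over all cells. Within the basal and differentiated ranges 42.1% and 21.5% were higher at day 3. In DESeq2 the counts of RAB genes were 14 and 11 at day 1, 17 and 5 at day 3 and 8 and 8 for day 3 against day 1. Between the ranges DESeq2 gave 3 and 10 in uninjured and 2 and 12 in day 3 samples, and changes of that difference numbered 3 and 2 at day 1 and 2 and 4 at day 3. Of all 9062 genes tested within the basal range, DESeq2 called 2970 at day 1 and 2103 at day 3. Within the differentiated range these were 2843 and 2373 of 9785. The RAB genes had 8 and 8 and 6 and 4 within the basal range at day 1 and day 3. Within the differentiated range they had 11 and 6 and 9 and 3. With KRT12 left out of the score the uninjured ranges gave 4 higher, and day 1 changes of the difference that were higher numbered 5; these were 4 with narrower ranges and 4 with 30 percent of cells taken out. The cause was not tested.

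With 1 sample left out in turn, the counts ranged over 8 to 13 and 11 to 13 for day 3 against day 1, 4 to 5 and 11 to 14 between uninjured ranges and 2 to 3 and 12 to 17 between day 3 ranges. Changes of the difference ranged over 4 to 5 and 4 to 5 at day 1 and 3 to 5 and 5 to 8 at day 3. Day 3 counts ranged over 7 to 9 and 5 to 8 within the basal and 11 to 13 and 5 to 7 within the differentiated range. These fits have fewer samples, and the lone sample is assumed to vary like the other groups.

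Total counts alone turned the sign of 13 values for single genes. At day 1 they became -0.16 for RAB18, -0.21 for RAB2A, -0.10 for RAB5C, -0.33 for RAB6A and -0.33 for RAB9A. At day 3 they became -0.42 for RAB18, -0.36 for RAB21, -0.061 for RAB24, -0.13 for RAB2A, -0.40 for RAB35, -0.35 for RAB6A, -0.14 for RAB7A and -0.28 for RAB9A. Of the other values for single genes under alternatives, 1774 kept their call or its absence, 212 lost a call and 30 gained one.

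Samples with the same replicate number did not deviate together (correlation across genes 0.02 to 0.05), so the numbers were not read as pairs. With the replicate number as a block the counts were 18 and 16 at day 1, 19 and 11 at day 3 and 11 and 13 for day 3 against day 1.

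With 2 samples a group, genes with few counts (RAB3A, RAB26, RAB3IL1, RAB17) have wide errors, and a count of 0 allows up to 3 counts over the group.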
